A study of Homo sapiens with 6 samples.

Results

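The antimicrobial proteins of skin studied here were RNASE7, GPR15LG, LCN2, PI3, SLPI, DEFB1, DEFB4A, DEFB103A and CAMP, 9 genes given by symbol. Of these, 8 had a probe set annotated to that symbol alone, among 17687 named genes in all, and DEFB103A was not analysed here. Below, a gene with a probe set is one with such an annotation, and probe sets annotated to more than 1 symbol were not used for genes. Members were chosen by gene symbol, and their probe sets were to be selected on the mean log2 signal over the 6 arrays, the brightest of each gene. As 0 of the 8 genes had more than 1 probe set, that mean decided nothing. The RNA came from A431 cells, an established human line derived from an epidermoid carcinoma of the skin and rich in the EGF receptor (EGFR), grown in E-MEM with 10% fetal bovine serum. All 3 groups were starved for 24 h: the control group then received no treatment, the EGF group 100 ng/ml of epidermal growth factor, and the EGF plus gefitinib group the same dose of EGF with 10 µM of gefitinib, an inhibitor of the EGFR kinase. Harvest was at 30 min, per the labels, which do not give the order in which EGF and gefitinib were added, and each group held 2 arrays. The sample titles number them as biological replicates; whether these were separate cultures is not stated, and the p-values measure the spread between these arrays only. All groups come from 1 tumour line, which limits them as a model of normal epidermis.

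Keratinocytes, the main cells of the epidermis, release small proteins that serve in defence against microbes. They act by damaging microbial membranes, by binding the iron carriers that bacteria depend on, or by holding back the proteases of bacteria and neutrophils. Some are made at all times and others only after injury, infection or cytokines such as interleukin 1, interleukin 17 and interleukin 22. EGFR and its ligands are known for their part in wound repair, during which several of these proteins are induced, and drugs that block EGFR are known for rashes with altered skin defence.

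The 250 bases upstream of the RefSeq gene start (GRCh38.p14, all on the plus strand) are shown for the members that differed in at least 1 comparison and have an entry in the promoter table used, since they moved in different directions. Of the 9 members 4 had an entry (RNASE7, GPR15LG, LCN2 and CAMP), and 3 are printed, at chr14:21042112-21042361 for RNASE7, chr10:84173551-84173800 for GPR15LG and chr9:128149203-128149452 for LCN2. Capitals mark every match, on either strand, to the motifs of AP-1 (TGANTCA), C/EBP (TTGCNNAA) and STAT (TTCNNNGAA), and to a loose NF-kB consensus of 10 bases that fixes the first 3 as guanines and the last 2 as cytosines. They also mark the FOXO core motif, TGTTTA. The last motif searched was the TATA box, spelled TATAAA.
RNASE7: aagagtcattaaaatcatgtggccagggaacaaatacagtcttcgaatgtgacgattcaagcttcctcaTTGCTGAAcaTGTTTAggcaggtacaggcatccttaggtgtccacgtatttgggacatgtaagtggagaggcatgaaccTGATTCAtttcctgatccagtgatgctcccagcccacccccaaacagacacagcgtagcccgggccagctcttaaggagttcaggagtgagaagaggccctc
GPR15LG: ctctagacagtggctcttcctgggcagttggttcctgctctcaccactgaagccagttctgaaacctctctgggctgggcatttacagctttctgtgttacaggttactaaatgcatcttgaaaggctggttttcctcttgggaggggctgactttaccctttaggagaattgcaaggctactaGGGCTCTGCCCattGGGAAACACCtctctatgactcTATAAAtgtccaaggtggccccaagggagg
LCN2: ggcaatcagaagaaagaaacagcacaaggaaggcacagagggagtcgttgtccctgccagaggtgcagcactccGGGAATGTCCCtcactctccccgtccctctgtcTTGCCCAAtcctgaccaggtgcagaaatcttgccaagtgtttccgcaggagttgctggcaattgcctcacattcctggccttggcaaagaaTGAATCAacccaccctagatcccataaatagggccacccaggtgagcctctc
The window of RNASE7 held the AP-1 letters 102 to 96 bases before the gene start, the C/EBP letters at 181 to 174 and the FOXO core at 171 to 166. That of LCN2 held the AP-1 letters 52 to 46 bases before the start and the C/EBP letters at 143 to 136, with the NF-kB letters from 176 to 167 on one strand and, overlapping them, from 175 to 166 on the other. GPR15LG held the TATA box 30 to 25 bases before its start and the NF-kB letters at 66 to 57 and 52 to 43, the first again overlapped on the other strand by a match at 65 to 56. The AP-1 letters stood in 6.57% of 35116 promoter windows of this length, the C/EBP letters in 9.05%, the FOXO core in 10.99%, the TATA box in 10.7%, the STAT letters, found in 0 of these 3, in 6.57%, and the loose NF-kB letters in 54.4%. A match of letters is a description of the window and not a binding site.

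The values are log2 signals as deposited, and 21448 transcript probe sets were compared. The 95th percentile of 612 negative-control probe sets, 7.14 to 7.65 on the single arrays, served as the background limit, and 38.4% to 42.1% of the transcript probe sets of an array lay above it. Levels of different probe sets are not comparable. A change is given as one group's mean minus the other's on the log2 scale, ± limma's standard error, and is called where the p adjusted over all probe sets is under 0.05. The 13 keratinocyte markers with a probe set, of 21 listed, lay above the limit on all 6 arrays, among them the basal keratins KRT5 (16.74 to 16.86) and KRT14 (13.71 to 14.20) and EGFR (14.38 to 15.36), while TP63 was not analysed here. Of 15 neutrophil markers with a probe set, CAMP among them, 0 lay above it on both arrays of any group, and their summed log2 levels were 59.8 to 61.7 in control, 58.9 to 59.9 with EGF and 59.5 to 60.8 with EGF plus gefitinib. Of 15 other leukocyte markers 1 did (CD68, a lysosomal protein), and of 10 fibroblast markers 2 did (LUM and COL1A2). The summed fibroblast markers were 51.5 to 51.6 in control, 48.4 to 48.9 with EGF and 48.2 to 50.2 with EGF plus gefitinib, and LUM measured 9.48 in control and 8.14 with EGF. LUM (−1.34) and DCN (−1.21), both matrix proteoglycans, were called lower with EGF, as LCN2 was, DCN within the negative-control range, and the chemokine receptor CXCR2 was called lower too (−1.56) within the negative-control range. Keratinocyte markers also moved: with EGF the desmosomal cadherin DSG3, SFN and ITGA6 were called higher (1.21, 1.02 and 0.94) and ITGB4 lower (−0.81), and with gefitinib added ITGB4, EGFR, DSC3 and PERP were called higher than with EGF alone (1.34, 0.87, 0.98 and 0.78) and SFN and ITGA6 lower (−2.09 and −0.76). The part of these markers in the results was not tested.

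Among the members, RNASE7, LCN2 and SLPI lay above the limit on both arrays of at least 1 group. GPR15LG did so on 1 control array, and PI3, DEFB1, DEFB4A and CAMP on none. Against the 99th percentile of the negative controls (9.21 to 10.3), the members above it on both arrays of a group were LCN2 and SLPI. RNASE7 stayed below this stricter limit even where it was highest.

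**Figure D1:**
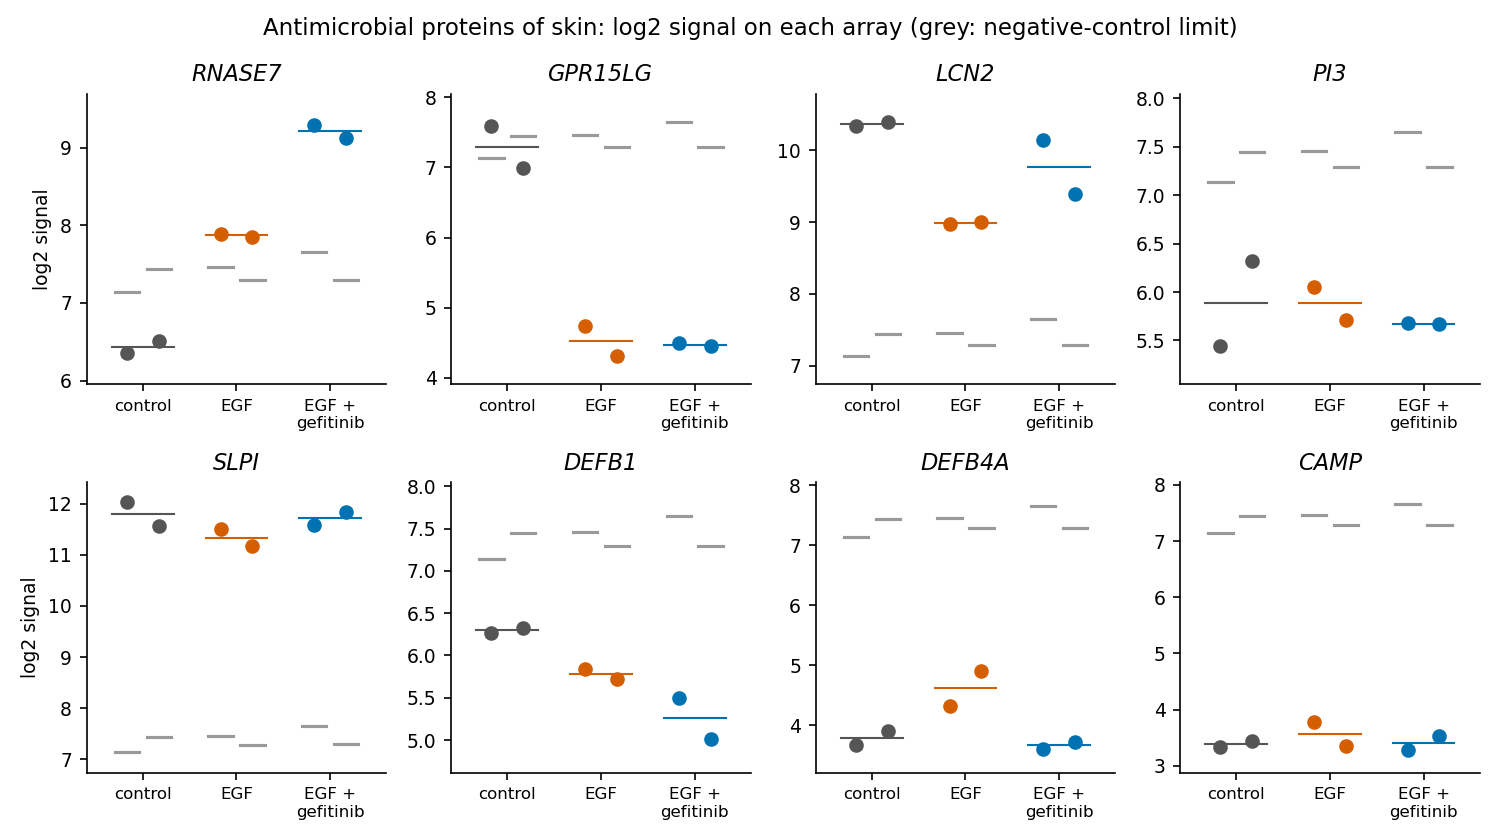
Log2 signal (vertical axis) of the 8 measured antimicrobial genes on each of the 6 arrays, by group (horizontal axis). Points are arrays, coloured lines are group means and grey dashes are the background limit of each array, and RNASE7 shows 3 separate levels, from 6.43 in control to 9.21 with EGF plus gefitinib.

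RNASE7, a ribonuclease of the pancreatic RNase family that keratinocytes secrete and that permeabilises bacterial membranes, rose in both treated groups and was highest with gefitinib. It measured 6.35 and 6.51 on the control arrays, 7.89 and 7.85 on the EGF arrays and 9.30 and 9.12 on the EGF plus gefitinib arrays. No 2 groups overlapped, and the control arrays were the only ones within the negative-control range. EGF alone raised it by 1.44 ± 0.18 (adjusted p = 0.00416), which is at least 1.5-fold against the background limit. With gefitinib added to EGF it was a further 1.34 ± 0.18 higher (adjusted p = 0.00298), or 2.53-fold, with both groups above the limit. Against control the difference with EGF plus gefitinib was 2.77 ± 0.18 (adjusted p = 0.00618), at least 3.78-fold. The order of the groups was thus control, EGF, EGF plus gefitinib, with each neighbouring pair called. The call against control with EGF plus gefitinib was lost without control 1 (2.69, adjusted p = 0.0635) or EGF plus gefitinib 2 (2.86, adjusted p = 0.056), when limma called 0 probe sets of all in that comparison. The other RNase family members with a probe set in the list (RNASE1, RNASE2, RNASE6 and RNASE8) lay within the negative-control range on all 6 arrays, and RNASE8, the closest relative of RNASE7, measured 2.69 to 3.36. RNH1, the cytosolic inhibitor that binds RNases of this family, measured 11.3 to 11.7 and differed by −0.08 between EGF and control (95% interval −0.58 to 0.42, adjusted p = 0.868).

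GPR15LG, a cationic peptide of skin and gut that is bactericidal and attracts lymphocytes through the receptor GPR15, fell in both treated groups. The control arrays gave 7.58 and 6.98, the EGF arrays 4.74 and 4.31, and the EGF plus gefitinib arrays 4.50 and 4.45. The controls stood above all 4 treated arrays, which overlapped each other. The difference from control was −2.76 ± 0.26 with EGF (adjusted p = 0.00159) and −2.81 ± 0.26 with EGF plus gefitinib (adjusted p = 0.00743). Between the treated groups it was −0.05 (95% interval −0.65 to 0.55, adjusted p = 0.925), so a gefitinib effect beyond that interval was not seen, but all 4 treated arrays lay in the negative-control range. The control mean was no higher than the background limits of the treated arrays, so no fold is given. The call with EGF plus gefitinib against control was lost without control 1 (−2.51) or EGF plus gefitinib 2 (−2.78). Fewer of all probe sets were called in those fits too. The receptor GPR15 itself, a lymphocyte gene, measured 4.24 to 5.07, within the negative-control range on all 6 arrays.

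LCN2, lipocalin 2, binds bacterial siderophores and so withholds iron. It fell with EGF, from 10.34 and 10.39 on the control arrays to 8.98 and 9.0 on the EGF arrays, 2.59-fold (−1.38 ± 0.26, adjusted p = 0.0171). With EGF plus gefitinib it measured 10.14 and 9.39, between the other groups, a mean of 9.77 ± 0.53 (SD, n = 2), the widest spread of its 3 groups. That group did not overlap EGF or control, yet it was not called against EGF (0.78, 95% interval 0.17 to 1.38, adjusted p = 0.0813) or against control (−0.60, −1.20 to 0.01, adjusted p = 0.246). Without EGF plus gefitinib 2 the difference from EGF was called (1.15, adjusted p = 0.0228). Conversely, the fall with EGF was not called without control 1 (−1.40, adjusted p = 0.079), control 2 (−1.35, adjusted p = 0.0895), EGF 1 (−1.36, adjusted p = 0.0926) or EGF 2 (−1.39, adjusted p = 0.0886). The LCN2 receptor SLC22A17 (5.82 to 6.35) and its binding partner MMP9 (4.32 to 4.72), a gelatinase, lay within the negative-control range on all 6 arrays.

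SLPI and PI3 (elafin) are inhibitors of neutrophil elastase with antibacterial activity and belong to the whey acidic protein (WAP) family. SLPI measured 12.02 and 11.56 in control, 11.50 and 11.17 with EGF and 11.59 and 11.84 with EGF plus gefitinib, above the limit throughout. Its EGF arrays were the lowest of the 6, but the higher of them lay close to the lower control array. No difference was called: −0.46 for EGF against control (95% interval −1.0 to 0.09, adjusted p = 0.273), 0.38 for EGF plus gefitinib against EGF (−0.17 to 0.92, adjusted p = 0.328) and −0.08 against control (−0.63 to 0.47, adjusted p = 0.888). PI3 measured 5.45 and 6.32, 6.05 and 5.71, and 5.68 and 5.67 in the same order of groups, within the negative-control range. Its difference between EGF and control was 0.00 with an interval of −0.70 to 0.70 (adjusted p = 0.999), and it was −0.21 (−0.91 to 0.49) for EGF plus gefitinib against either other group.

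The beta-defensins and the cathelicidin are membrane-active peptides, and those measured here lay in the negative-control range on all 6 arrays. DEFB1, the constitutive defensin of epithelia, measured 6.27 and 6.32 in control, 5.84 and 5.72 with EGF and 5.50 and 5.01 with EGF plus gefitinib. Its groups did not overlap. It was called lower for EGF plus gefitinib against control (−1.04 ± 0.21, adjusted p = 0.0461), but not for EGF against control (−0.51, 95% interval −1.01 to −0.01, adjusted p = 0.178) or EGF plus gefitinib against EGF (−0.52, −1.02 to −0.03, adjusted p = 0.14). That call did not hold without any 1 of the 6 arrays in turn (−1.28 to −0.80). Fewer of all probe sets were called in each of those fits too, and without either EGF array the difference stayed at −1.04. DEFB4A, the defensin that interleukin 1 and interleukin 17 induce, measured 3.67 and 3.91 in control, 4.33 and 4.91 with EGF and 3.61 and 3.73 with EGF plus gefitinib. The EGF arrays were the highest, with an uncalled difference of 0.83 from control (95% interval 0.27 to 1.38, adjusted p = 0.067). With gefitinib it was called lower than with EGF alone (−0.95 ± 0.24, adjusted p = 0.0313). That difference was not called without EGF 2 (−0.66), EGF plus gefitinib 1 (−0.89) or EGF plus gefitinib 2 (−1.0). Fewer of all probe sets were called in those fits too. DEFB4B, a near-identical copy whose probes may share its transcripts, measured 3.25 and 3.58, 3.92 and 4.66, and 3.45 and 3.57, with the EGF arrays again highest and 0 comparisons called. CAMP, the precursor of the peptide LL-37, measured 3.28 to 3.79 over the 6 arrays, the groups overlapped, and its differences lay between −0.17 and 0.18.

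Over the 8 measured members, 3 were called for EGF against control, 1 higher (RNASE7) and 2 lower (GPR15LG and LCN2), where 11.9% of all probe sets were called, 6.61% higher and 5.3% lower. Their median difference was −0.23, beside −0.03 over all probe sets. For EGF plus gefitinib against EGF 2 were called, RNASE7 higher and DEFB4A lower, where 18.7% of all probe sets were called (8.86% higher and 9.81% lower), with a median of −0.11 beside 0.05. For EGF plus gefitinib against control 3 were called, RNASE7 higher and GPR15LG and DEFB1 lower, where 3.89% of all probe sets were called (2.19% higher and 1.7% lower), with a median of −0.17 beside 0.01. Of the members called in these 3 comparisons, 2, 1 and 1 in turn lay above the limit on both arrays of at least 1 group. The comparisons share arrays, the members were picked with earlier results known, and 8 genes are few, so these counts describe the members only. Without control 1 or EGF plus gefitinib 2, no member was called in the last comparison, nor any other probe set.

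**Figure D2:**
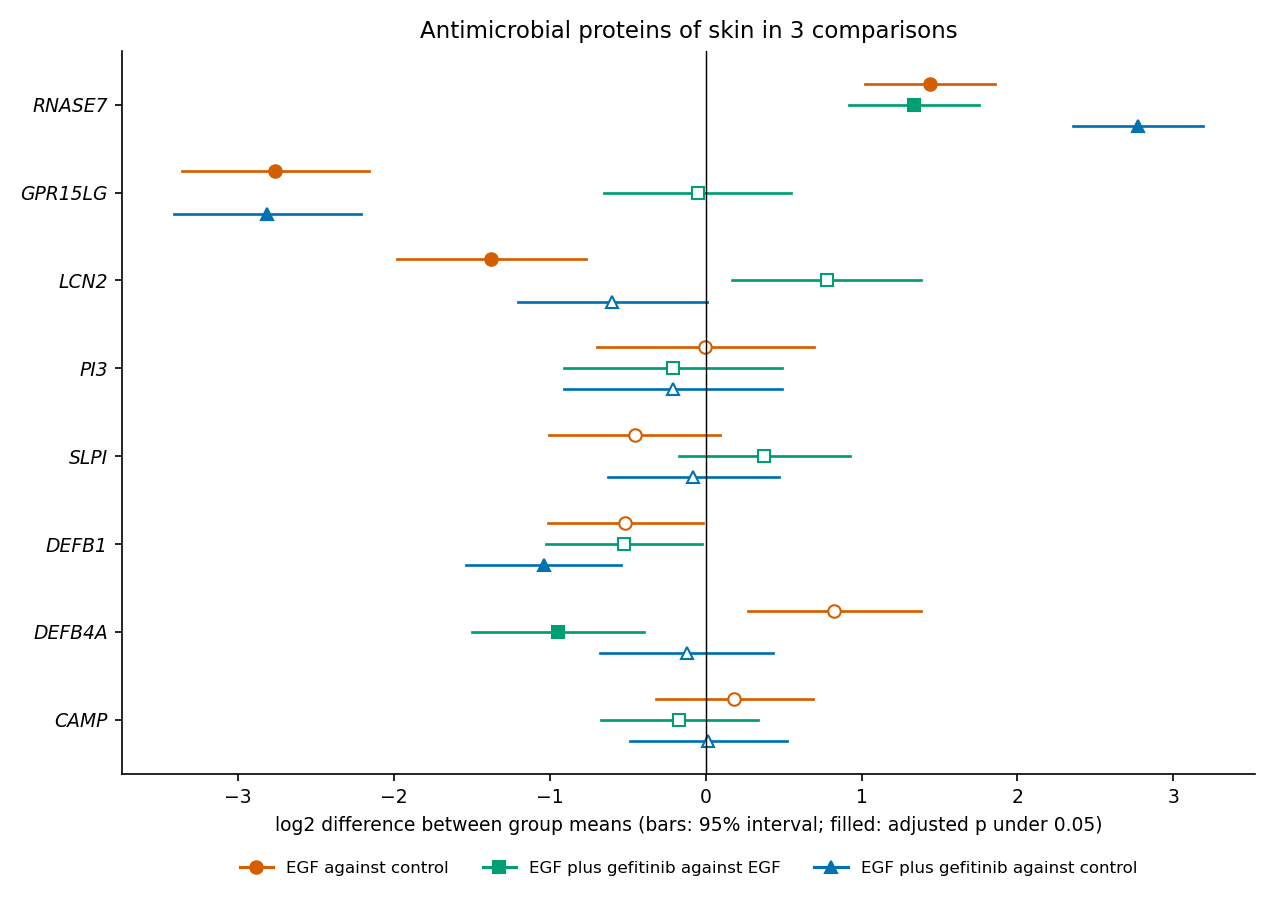
Log2 differences between group means (horizontal axis) for each measured member (vertical axis) in the 3 comparisons, with 95% intervals from limma and filled symbols where the adjusted p was under 0.05. RNASE7 lies to the right of 0 in all 3 comparisons, while the EGF plus gefitinib against EGF value of GPR15LG (−0.05) lies at 0 and its other 2 lie near −2.8.

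Genes with the most similar profiles were sought among 7930 named genes above the limit, by Euclidean distance over the 6 arrays after taking off each gene's mean. Nearest to RNASE7 were ABL2, a tyrosine kinase (distance 0.42), STC2, a secreted stanniocalcin (0.70), and ZNF114, a zinc finger protein (0.71). ABL2 measured 8.38 and 8.47 in control, 9.43 and 9.73 with EGF and 11.01 and 10.80 with EGF plus gefitinib, the same stepwise order of groups. Nearest to LCN2 were HIGD2A, a respiratory chain assembly factor (0.22), ADIRF (0.25) and YIPF3 (0.28). In each of these 3 the first EGF plus gefitinib array lay near the controls and the second near the EGF arrays, as for LCN2: ADIRF measured 9.65 and 8.74 there, against 9.69 and 9.95 in control and 8.27 and 8.54 with EGF. Nearest to SLPI were PPP1R37 (0.18), CHD3, a chromatin remodeller (0.20), and CD1D, a lipid antigen presenter (0.20). With only 3 groups of 2 arrays, a short distance says nothing of shared function or control.

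**Figure D3:**
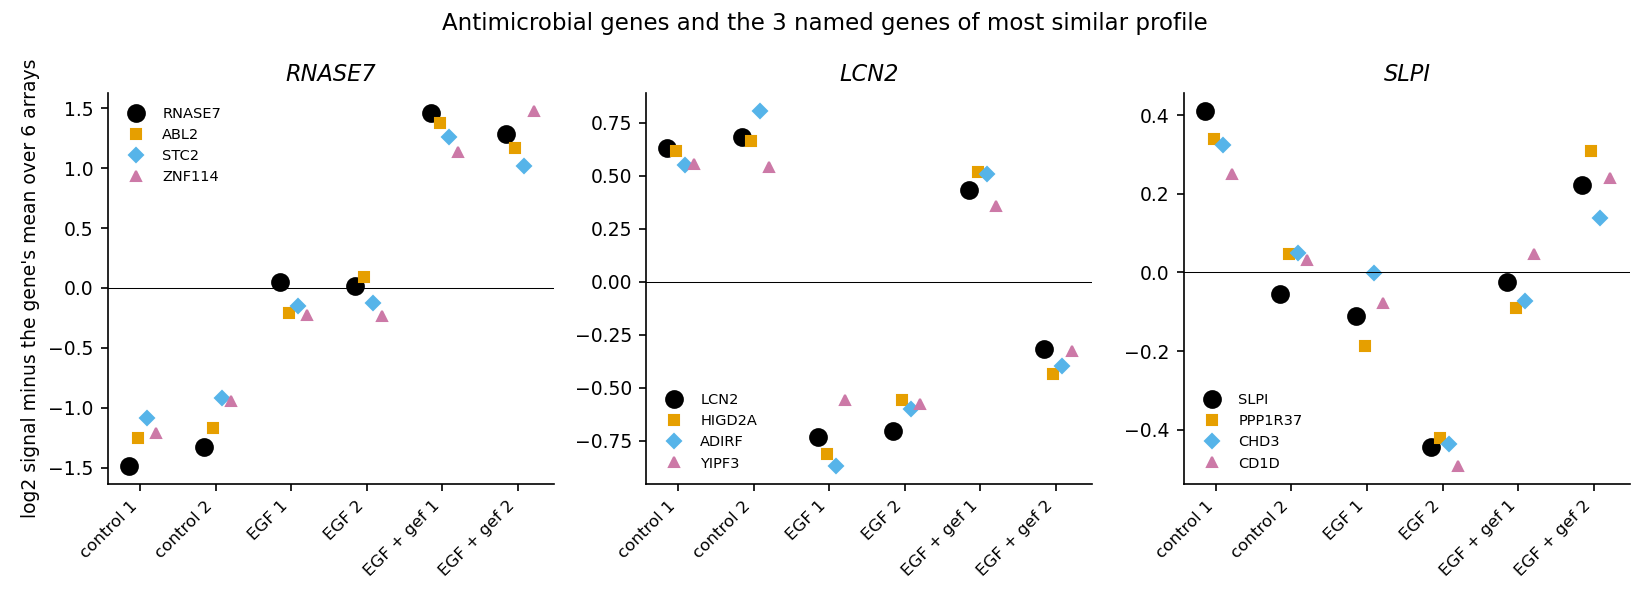
Log2 signal minus the gene's own mean (vertical axis) on the 6 arrays (horizontal axis) for RNASE7, LCN2 and SLPI (black) and the 3 genes of most similar profile (colours). In the LCN2 panel the 2 EGF plus gefitinib arrays of all 4 genes lie apart, the first of them higher.

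Other antimicrobial proteins of epithelia were mostly too dim to measure: of 64 listed, 57 had a probe set and 5 lay above the limit on both arrays of a group. For EGF against control 1 was called higher and 8 lower (15.8% of 57, beside 11.9% of all probe sets; median −0.13), among them the S100 proteins S100A7, S100A8, S100A9 and S100A12, the peptidoglycan recognition proteins PGLYRP3 and PGLYRP4, and the WAP proteins WFDC2 and WFDC5. S100A8, which with S100A9 forms calprotectin, a binder of zinc and manganese, measured 8.97 and 8.80 in control, 7.34 and 7.60 with EGF and 7.50 and 6.87 with EGF plus gefitinib. The EGF arrays lay below the controls, 2.67-fold (−1.42 ± 0.25, adjusted p = 0.0139). S100A9 measured 10.75 and 10.19, 9.59 and 9.51, and 9.48 and 9.17 in that order, and fell by 0.92 with EGF (adjusted p = 0.0486). S100A7, psoriasin, which kills Escherichia coli by binding zinc, measured 9.17 and 9.52, 7.95 and 7.64, and 8.80 and 7.78, and fell by 1.55 with EGF (adjusted p = 0.0279). As for LCN2, its EGF plus gefitinib arrays were spread widely (8.29 ± 0.72, SD, n = 2) with the first the higher. PGLYRP3 differed by −1.80 (adjusted p = 0.0084) and PGLYRP4 by −1.40 (adjusted p = 0.0244), but both lay below the limit on all 6 arrays, as did S100A12. WFDC5 lay above it on 1 control array only. WFDC2, above the limit on both control arrays, fell at least 1.46-fold (adjusted p = 0.0183). Of the 9 genes called, 4 lay above the limit on both arrays of at least 1 group.

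With gefitinib added to EGF, of these 57 genes only DEFB132 was called (1.75%, beside 18.7% of all probe sets), higher but within the negative-control range, and 6 had an unadjusted p under 0.05. For EGF plus gefitinib against control 4 were called lower (S100A8, S100A9, PGLYRP3 and WFDC2) and 1 higher (8.77%, beside 3.89% of all probe sets). S100A8 was at least 2.67-fold lower (−1.70 ± 0.25, adjusted p = 0.0203) and PGLYRP3 differed by −2.07 (adjusted p = 0.0166), beside −0.28 and −0.26 for EGF plus gefitinib against EGF. The 1 called higher was ADM, adrenomedullin, a vasodilator peptide with antimicrobial activity, which measured 11.62 and 11.66 in control, 12.10 and 12.04 with EGF and 12.59 and 12.73 with EGF plus gefitinib (1.02 ± 0.17, adjusted p = 0.0284). Like RNASE7 it was lowest in control and highest with gefitinib without overlap, but neither EGF against control (0.43, adjusted p = 0.163) nor EGF plus gefitinib against EGF (0.59, adjusted p = 0.0524) was called. CCL20, a chemokine with defensin-like activity, was called higher with EGF (0.95, adjusted p = 0.0171) within the negative-control range. Of the genes named by rule from this list, none kept its call in every fit with 1 array left out. Fewer of all probe sets were called in each such fit too. For EGF against control, the S100A8 call was lost without any 1 of the control or EGF arrays (−1.55 to −1.29). That of PGLYRP3 was lost without control 2 (−1.71), and those of WFDC2 and PGLYRP4 without 3 of the 6 arrays each. The ADM, WFDC2 and S100A9 calls against control with EGF plus gefitinib were lost without any 1 of the 6. Leaving out an EGF array did not change those differences, as that comparison does not include EGF alone.

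**Figure D4:**
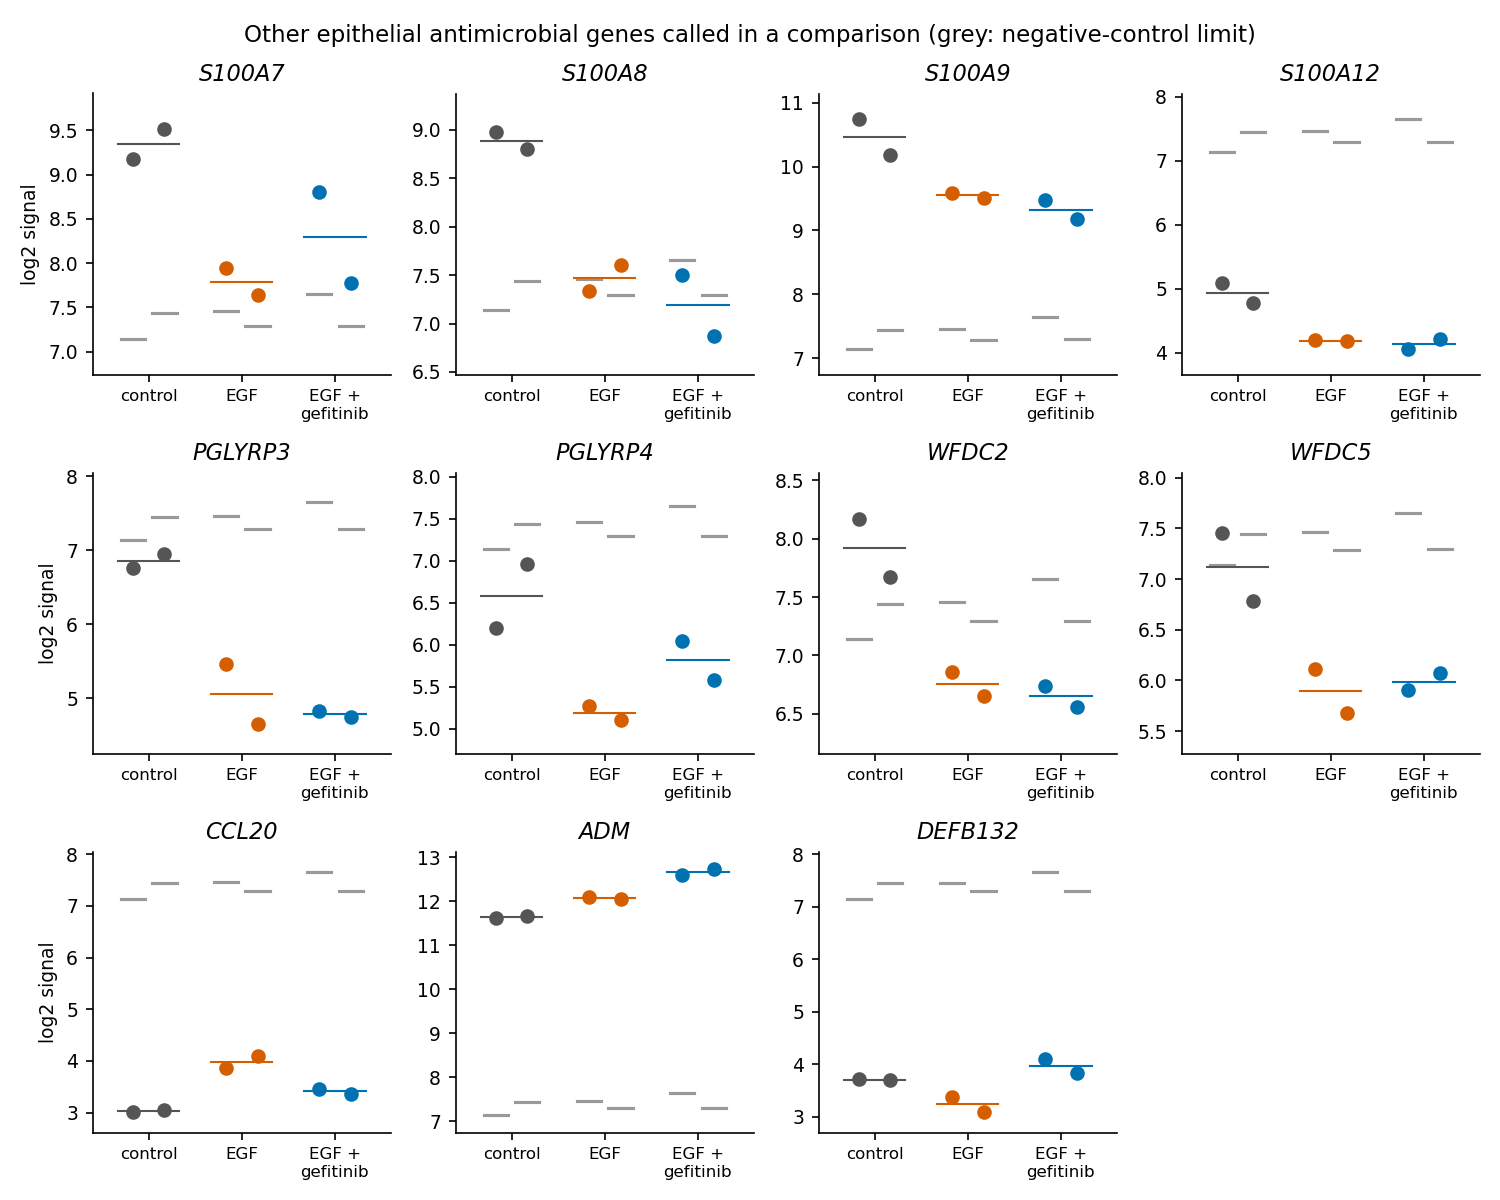
Log2 signal (vertical axis) on each array, by group (horizontal axis), of the 11 other epithelial antimicrobial genes called in at least 1 comparison, drawn as in the plot of the members. The S100, PGLYRP and WFDC genes have their highest group mean in control, and ADM has its lowest there.

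Receptors, partners, inhibitors and processing enzymes of these proteins formed a further list of 24, of which 21 had a probe set and 6 lay above the limit. EGF against control gave 2 called higher and 0 lower (9.52%, beside 11.9% of all probe sets), with 3 at an unadjusted p under 0.05. Gefitinib added to EGF gave 1 higher and 2 lower (14.3%, beside 18.7%), and EGF plus gefitinib against control 1 lower, KLK7 (4.76%, beside 3.89%). KLK7, a kallikrein of the outer epidermis that with KLK5 trims cathelicidin to its active peptides, measured 11.95 and 11.98 in control, 12.93 and 13.10 with EGF and 11.01 and 10.92 with EGF plus gefitinib. It rose 2.07-fold with EGF (adjusted p = 0.0111) and was 4.15-fold lower with gefitinib than with EGF alone (adjusted p = 0.000654). FURIN, a convertase that cleaves secreted precursors, rose by 1.72 ± 0.18 with EGF (adjusted p = 0.00237) and was lower with gefitinib than with EGF alone (−1.78 ± 0.18, adjusted p = 0.00115), at least 2.68-fold, since both EGF plus gefitinib arrays lay below the limit. The FURIN calls and the KLK7 fall against EGF alone held without any 1 array. The KLK7 rise with EGF was lost without either control or either EGF array (0.97 to 1.13). Its call against control with EGF plus gefitinib was lost without any 1 of the 6 arrays (−1.05 to −0.96). Fewer of all probe sets were called in each of these fits too. KLK5 measured 7.39 to 8.40 and was not called, and SUSD2, the other gene called with gefitinib (0.88, adjusted p = 0.0122), lay in the negative-control range.

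Cytokines, receptors and transcription factors known to control such genes were listed as 52 genes, of which 50 had a probe set and 26 lay above the limit. For EGF against control 9 were called higher and 5 lower (28% of 50, beside 11.9% of all probe sets), and for EGF plus gefitinib against EGF 6 higher and 10 lower (32%, beside 18.7%). For EGF plus gefitinib against control the counts were 3 and 4 (14%, beside 3.89%). IL1B, a cytokine that induces DEFB4A and LCN2 in keratinocytes, measured 10.58 and 10.60 in control, 13.05 and 12.91 with EGF and 9.63 and 8.76 with EGF plus gefitinib. It rose 5.24-fold with EGF (adjusted p = 0.00368) and was 13.8-fold lower with gefitinib (adjusted p = 0.000495). IL1A followed the same order between EGF and gefitinib, with 7.37 and 7.28, 10.52 and 10.32, and 8.59 and 8.11, an 8.53-fold rise (adjusted p = 0.000623) and a 4.20-fold fall (adjusted p = 0.00124).

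The receptor subunit IL20RB, through which interleukins 20 and 24 signal, ran the opposite way, with 12.77 and 13.02 in control, 9.98 and 10.23 with EGF and 13.17 and 13.26 with EGF plus gefitinib. It fell 6.93-fold with EGF (adjusted p = 0.000593) and was 8.65-fold higher with gefitinib than with EGF alone (adjusted p = 0.000258). OSMR, the oncostatin M receptor, rose by 2.50 ± 0.17 with EGF and was lower with gefitinib than with EGF alone (−1.64 ± 0.17), with adjusted p = 0.000593 and adjusted p = 0.00124. TLR3, the receptor of double-stranded RNA, fell by 1.58 with EGF (adjusted p = 0.0058), and MYD88, the adaptor of interleukin 1 and Toll-like receptors, was 3.22-fold lower with gefitinib than with EGF (adjusted p = 0.00105). These calls held without any 1 array. GRHL3 and ATF3 had the largest moderated statistics against control with EGF plus gefitinib: GRHL3, a factor of epidermal barrier formation, was at least 2.99-fold lower (adjusted p = 0.0149) and ATF3, a stress-induced factor, at least 1.69-fold higher (adjusted p = 0.0117). Neither of these 2 calls held without control 1, control 2 or EGF plus gefitinib 2, when few or no probe sets of all were called. That of ATF3 was also lost without EGF plus gefitinib 1. Over the fits with 1 array left out, GRHL3 differed by −2.78 to −1.92 and ATF3 by 1.72 to 1.81. ATF3 was also higher with gefitinib than with EGF alone (1.92 ± 0.20, adjusted p = 0.00123), a call that held without any 1 array. Both EGF arrays of ATF3 lay within the negative-control range. The remaining regulators named by rule lost calls when arrays were left out, where fewer of all probe sets were called too. HIF1A, the hypoxia factor, rose by 1.16 with EGF. TLR5, the flagellin receptor, was at least 1.32-fold lower with EGF than in control. With gefitinib TLR5 was at least 1.54-fold higher than with EGF alone. CYP24A1, which inactivates vitamin D (called lower with EGF), and POU2F3 (called higher with gefitinib than with EGF alone) lay within the negative-control range on all 6 arrays. MAFF, called higher than in control with EGF plus gefitinib, lay above the limit on 1 array. VDR, the vitamin D receptor through which CAMP is induced, measured 10.75 to 11.38 and was not called in any of the 3 comparisons.

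**Figure D5:**
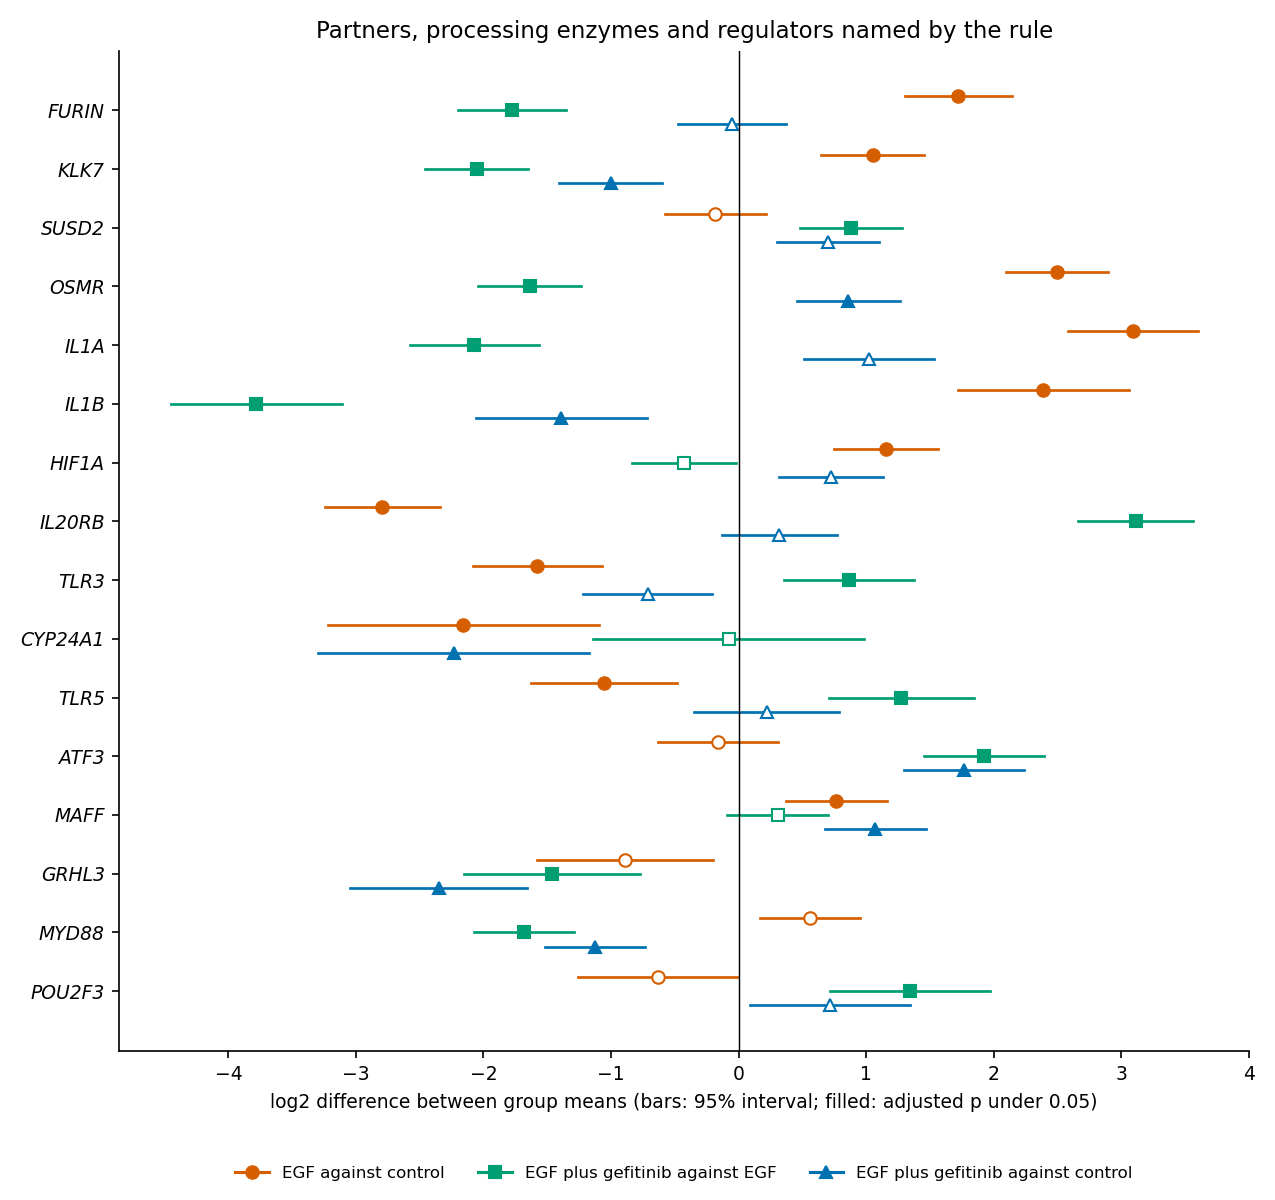
Log2 differences between group means (horizontal axis) with 95% intervals, for the partners, processing enzymes and regulators named by rule (vertical axis), with filled symbols where the adjusted p was under 0.05. KLK7, FURIN, OSMR, IL1A and IL1B lie right of 0 for EGF against control and left of 0 for EGF plus gefitinib against EGF, and IL20RB the reverse.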

How the data were processed

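Total RNA of 6 samples was labelled with biotin (WT PLUS kit) and hybridised to 1 array each, per the labels. The deposited log2 values come from Transcriptome Analysis Console, which the submitters' processing notes list without a version; the sources used here do not give how the authors corrected, summarized and normalized the signals. Their range (1.58 to 18.9) is that of log2 signals, and they were used as deposited. Of 24351 probe sets, 2903 controls were left out and 21448 tested, 17709 of them with 1 gene symbol. No filter was applied. The number of arrays limits the precision, and no scan date or batch was used.

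All 6 arrays entered 1 fit of 3 group means (limma 3.58.1 in R 4.3.3, lmFit and eBayes; 3 residual and 4.22 prior degrees of freedom; two-sided, Benjamini-Hochberg over all probe sets), checked on simulated data. An exact permutation test of 2 arrays against 2 cannot go below p = 0.333 and was not used. A probe set at or below the 95th percentile of the negative controls on each array of a group has no more than a bound there, and its fold is the brighter mean against, per array, the higher of that limit and its own value, written "at least"; where this came to under 1, or both groups were below, no fold is given. The members and lists were chosen with earlier results of these data known, so no list was tested as a set. All members were named, and from each list of other genes the called ones with the largest moderated statistic, up to 4 per direction and comparison; S100A7, S100A12, WFDC5, DEFB4B, the RNase relatives, GPR15, SLC22A17, MMP9, RNH1, KLK5 and VDR were added outside this rule after their values were seen. Promoter sequences are from RefSeq (GRCh38.p14).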

Additional observations from a re-analysis of the deposited data

How the results depend on the processing

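The alternatives were quantile normalization, median centring, a filter that kept probe sets above background on at least 2 arrays, an intensity trend, a robust prior, a fit of only the 2 groups compared, the replicate block, and each of the 6 arrays left out. Using another probe set of a member was not run, since none had more than 1. No called difference of a member changed sign under any of these that could be run. With an array left out, the members called numbered 2 to 3 for EGF against control, 1 to 2 for EGF plus gefitinib against EGF and 0 to 2 for EGF plus gefitinib against control. The other genes of the antimicrobial pathway (128 measured) then numbered 7 to 24 (25 with all arrays), 12 to 18 (20) and 0 to 4 (13). The lowest of these, 0, came from limma without control 1, control 2 or EGF plus gefitinib 2, with 25 to 38 genes at an unadjusted p under 0.05 over all such fits. Fewer of all probe sets were called in each fit with 1 array left out too, in all 3 comparisons. Lower counts there do not by themselves set the members or pathway genes apart from the other probe sets. The filter left 3 members in the fit. For EGF plus gefitinib against control it called 1 of them, RNASE7, and 2538 of 9211 probe sets in all. It called LCN2 higher for EGF plus gefitinib against EGF (adjusted p = 0.0239), as did the intensity trend (adjusted p = 0.0141). The fit of 2 groups called 4 other pathway genes for EGF plus gefitinib against control, where it called 247 of 21448 probe sets. DEFB1 lost its call there with the robust prior (adjusted p = 0.0503) and with 2 groups (adjusted p = 0.0873).

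The replicate block called 6 other pathway genes for EGF plus gefitinib against control, where it called 333 of 21448 probe sets. It took DEFB1 there to adjusted p = 0.0709. Members called were 3, 2 and 2 in the 3 comparisons, where 2040, 3489 and 333 of all probe sets were called. Arrays of the same number did not deviate together over all probe sets (correlations −0.041, 0.021 and −0.0035). Whether samples of the same number shared a culture or day is not stated, and these correlations cannot decide it. Across the fits with 1 array left out, LCN2 lost its call for EGF against control and DEFB4A its call for EGF plus gefitinib against EGF. RNASE7, GPR15LG and DEFB1 lost theirs for EGF plus gefitinib against control, each in at least 1 such fit. LCN2 gained a call for EGF plus gefitinib against EGF. Signals near the negative-control range, where 5 of the 8 members lay, give no order of levels or folds.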
